A study of Mus musculus with 9 samples.

Results

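The Nat8 and Cml genes of the mouse encode small acetyltransferases of the camello family, and most of them lie side by side on chromosome 6. They were examined in kidney RNA from 4 wild-type and 5 Bmal1 -/- C57BL/6 libraries, profiled by 3′ mRNA sequencing. Members were the rows of the expression tables whose symbol starts with Nat8, or is Cml followed by a digit. This gave 6 members of 23282 rows: Nat8, Nat8l, Cml1, Cml2, Cml3 and Cml5. The family was picked because its members were lower in knockout kidney in these same libraries. Its genotype differences are therefore given as a description, without a test.

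Bmal1 (symbol Arntl) is the transcription factor at the core of the circadian clock, and the labels describe the mice by strain, tissue and genotype alone. Hour of sampling, age, sex and the deleted part of the gene are not stated there, nor whether each library is a separate animal. P-values for other genes thus measure the spread between these libraries, which may be technical. Arntl itself was at 6.68, 6.26, 7.06 and 6.76 in wild types 1 to 4 and at 5.95, 5.65, 5.99, 5.80 and 5.86 in knockouts 1 to 5, lower in each knockout (-0.84, SE 0.21, limma adjusted p = 0.0112). Reads from the 3′ end check the deletion only if it reaches that end. Values are log2(x + 1), where x, as judged from the values, is a read count adjusted between libraries by the authors. The kind of adjustment is not given in the sources used here. The adjusted totals were 11765219 to 13486444 per library, and the raw depth is unknown. The kit reads about 1 tag near the end of each transcript, so levels of different genes can be set side by side without a correction for length.

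In kidney, NAT8 carries out the last step of mercapturic acid formation. Glutathione is first joined to a reactive compound, the conjugate is trimmed to a cysteine conjugate by γ-glutamyltransferase and dipeptidases, and NAT8, on the endoplasmic reticulum membrane, then acetylates the cysteine with acetyl-CoA so that the product leaves in urine. NAT8 has also been described as an acetyltransferase of lysines in proteins of the endoplasmic reticulum. Nat8l makes N-acetylaspartate, a metabolite best known from neurons. The substrates of the other Cml genes are less well known.

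The current names of Cml1, Cml2, Cml3 and Cml5 are Nat8f1, Nat8f2, Nat8f3 and Nat8f5. RefSeq lists Cml3 as an older name of 3 genes; the other two have rows of their own in the tables as Gm4477 (now Nat8f7) and Gm11128 (now Nat8f6), so Cml3 was taken as Nat8f3. A further relative, 1700019G17Rik, is now Nat8f4. In GENCODE M21 on GRCm38, the assembly of mm10, all 8 genes of the cluster are protein-coding and on the minus strand of chromosome 6. Nat8 spans 85830388 to 85832082, Cml5 85817218 to 85820972, Cml3 85732513 to 85765754, Cml2 85865422 to 85869158 and Cml1 85910154 to 85915687. Nat8l stands apart on chromosome 5, at 33995984 to 34005916 on the plus strand.

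The 5 members of the cluster were lower in all 5 knockout libraries than in any wild type, with log2 differences of -0.55 to -4.50. In 4 of them the difference was beyond -1, as it was in 2.13% of all tested genes. All 5 passed the filter for testing (x of at least 10 in at least 4 libraries), and Nat8l did not. Over the 13481 genes that passed, 8.46% had all knockouts below all wild types, and the median log2 difference was 0.0002. Nothing is read from this comparison, since the family was chosen on it.

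**Figure D1:**
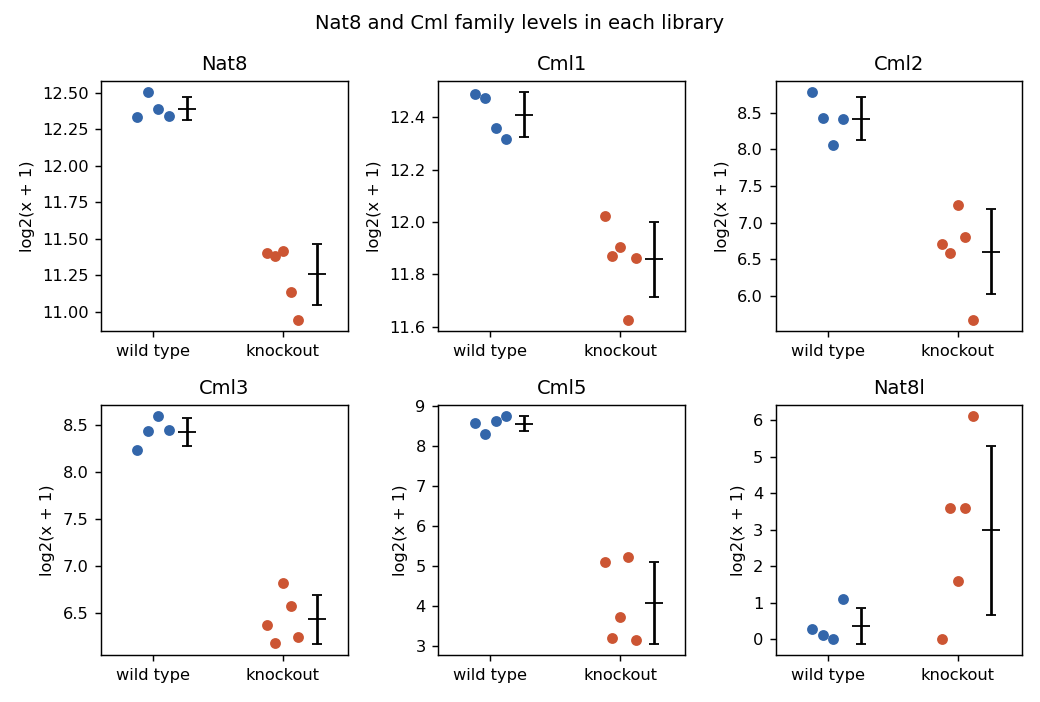
Level of each member on the log2(x + 1) scale (vertical axes, which do not start at 0) in the 4 wild-type (blue) and 5 knockout (orange) libraries, with the mean and SD in black beside the points. The points of the groups are apart in the 5 cluster members, while those of Nat8l overlap.

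Nat8 itself was among the abundant transcripts of wild-type kidney. Its values were 12.34, 12.50, 12.39 and 12.34 in wild types 1 to 4, and 11.40, 11.38, 11.42, 11.13 and 10.94 in knockouts 1 to 5. The lowest wild type lay 0.92 above the highest knockout, and knockouts 4 and 5 were the lowest libraries. Means were 12.39 ± 0.0778 (SD, n = 4) for wild type and 11.26 ± 0.209 (SD, n = 5) for knockout, a log2 difference of -1.14, or 2.20-fold lower. By mean level it ranked 317 among all 23282 rows in wild type and 811 in knockout.

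Cml1 was as abundant as Nat8 in wild type and differed least. Wild types 1 to 4 had 12.49, 12.47, 12.36 and 12.32, and knockouts 1 to 5 had 12.02, 11.87, 11.90, 11.63 and 11.86. The groups were 0.29 apart, with knockout 4 lowest. The log2 difference was -0.55 (SD 0.0853 in wild type and 0.144 in knockout), or 1.47-fold. The ratio of Cml1 to Nat8 reads was 1.01 ± 0.0652 (SD, n = 4) for wild type but 1.53 ± 0.211 (SD, n = 5) for knockout. It was 0.979 to 1.11 in the wild types and 1.40 to 1.89 in the knockouts, with knockout 5 the highest.

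Cml2 and Cml3 were at similar levels to each other, far below Nat8. Cml2 stood at 8.78, 8.42, 8.06 and 8.42 in wild type and at 6.71, 6.58, 7.25, 6.80 and 5.67 in knockout. Knockout 5 was the lowest, and the groups lay 0.81 apart with a log2 difference of -1.82 (SD 0.293 and 0.577). Cml3 stood at 8.23, 8.44, 8.59 and 8.44 in wild type and at 6.37, 6.18, 6.82, 6.57 and 6.24 in knockout. It was tighter within genotypes (SD 0.149 and 0.260), with a gap of 1.42 between them and a log2 difference of -1.99.

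Cml5 showed the widest difference. The wild types were at 8.58, 8.31, 8.63 and 8.75, and the knockouts at 5.11, 3.19, 3.71, 5.21 and 3.15. In adjusted reads this was 317 to 429 in wild type, against 33.4 and 36.1 in knockouts 1 and 4 and 7.85 to 12.1 in knockouts 2, 3 and 5. Every knockout was at least 3.10 below the lowest wild type. The means were 8.57 ± 0.185 (SD, n = 4) and 4.07 ± 1.02 (SD, n = 5), a log2 difference of -4.50, or 22.6-fold. By mean level Cml5 ranked 5008 in wild type and 12651 in knockout. Among all 13481 tested genes its difference was the 7th lowest, with Cml3 58th, Cml2 73rd, Nat8 212th and Cml1 970th.

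**Figure D2:**
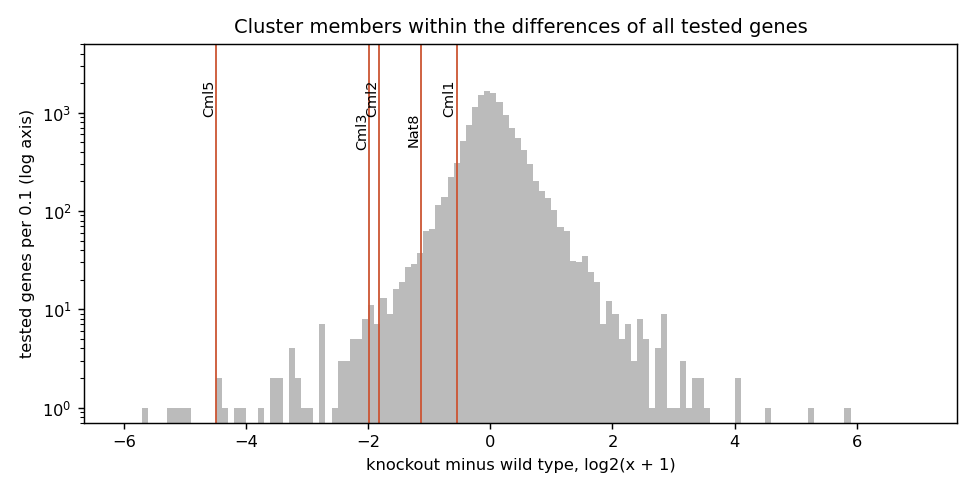
Distribution of knockout minus wild type differences, log2(x + 1), over all 13481 tested genes (grey bars, number of genes on a log axis), with the 5 cluster members as vertical lines. Cml5 at -4.50 lies in the far lower tail, and Cml1 at -0.55 on the shoulder of the main body.

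Nat8l was near the floor in wild type. In adjusted reads it had 0.22, 0.0785, 0 and 1.13 in wild types 1 to 4 and 0, 11.2, 2.02, 11.1 and 68.3 in knockouts 1 to 5. Knockouts 2, 4 and 5 exceeded 10 reads, but knockout 1 was at 0, so the groups overlapped. On the log2 scale knockout 5 reached 6.11. The other end of the N-acetylaspartate pathway was expressed in both genotypes. Aspa, the aspartoacylase that splits N-acetylaspartate, fell by 0.65 (SE 0.14, limma adjusted p = 0.00318), and Slc13a3, a carrier that takes it up, fell by 0.96 (SE 0.13, adjusted p = 4.45e-05). Folh1, a peptidase that cleaves N-acetylaspartylglutamate, rose by 1.13 (SE 0.13, adjusted p = 8.47e-06), and Naalad2 was at 0.34 (adjusted p = 0.574). Of 7 listed genes 4 were tested, with 2 lower, 1 higher and a median of -0.15. Among all tested genes 8.20% were called lower and 6.16% higher.

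Summed over the 5 cluster members, adjusted reads came to 11398 to 12500 in wild type and 5647 to 7089 in knockout. Nat8 and Cml1 made up nearly all of this sum. Nat8 held 45.2% ± 1.55 (SD, n = 4) of it among wild types against 38.4% ± 2.73 (SD, n = 5) among knockouts, and Cml1 45.8% ± 1.37 and 58.3% ± 3.34. The share of Cml5 was 3.21% ± 0.518 against 0.309% ± 0.233. Beside the lower total, Cml1 thus held a larger and Cml5 a smaller share in knockout.

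How well reads of these genes can be told apart was examined from their GENCODE transcripts. The last 300 bases of each gene's longest protein-coding transcript were cut into overlapping 50-base stretches, and each stretch was looked up in the other 8 family genes. None of the stretches of Nat8, Cml1, Cml5 or Nat8l occurred in a relative. For Cml3 and Gm4477 100% did: each holds the whole end of the other. Their coding sequences were 99.6% identical, and both were at least 99.1% identical to Gm11128, of whose end stretches 20.3% occurred in the other two. For Cml2 and 1700019G17Rik 45.0% and 45.4% were shared, at 84.5% coding identity. Nat8 was 79.3% identical to Cml5 and 78.7% to Cml1, and 45.3% to Nat8l. The values of Cml3, Gm4477 and in part Gm11128 can therefore not be told apart, and those of Cml2 and 1700019G17Rik are uncertain. Neither the read length nor the handling of shared reads is given in the sources used here. Exons of Cml5 and Gm11128 overlap at their 5′ ends on the same strand, but no exon of another gene overlaps the last exon of any of the 8 cluster genes.

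The 3 relatives under other symbols were outside the rule and were tested, but since they share reads with Cml3 or Cml2 their tests are not independent of how the members were chosen. All 3 fell. Gm11128 had 9.82, 9.62, 10.15 and 10.14 in wild type against 8.01, 8.12, 8.02, 7.82 and 7.69 in knockout, a log2 difference of -1.997 (SE 0.14, limma adjusted p = 1.38e-08). Gm4477 had 8.27, 8.02, 8.29 and 8.27 against 6.22, 6.35, 6.37, 5.86 and 6.32, with a difference of -1.99 (SE 0.16, adjusted p = 1.41e-07). 1700019G17Rik had 8.29, 7.91, 7.11 and 7.94 against 6.96, 6.55, 6.84, 6.00 and 6.29, with -1.29 (SE 0.24, adjusted p = 0.00116). In each the groups did not overlap, though wild type 3 and knockout 1 were close in 1700019G17Rik. The differences of Cml3, Gm4477 and Gm11128 were nearly equal; the part of shared reads in this was not tested.

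The genes around the cluster were examined next. Of 18 other protein-coding genes within 500 kb of the chromosome 6 members, 13 were tested, with 1 lower, 2 higher and a median of -0.20; over all tested genes 8.20% were lower and 6.16% higher. Tprkb, a subunit of the KEOPS complex for tRNA modification, overlaps Cml1 and runs the other way. It had 11.07, 11.13, 10.89 and 10.97 in wild type against 11.07, 10.61, 10.76, 10.82 and 10.60 in knockout (log2 difference -0.25, SE 0.11, limma adjusted p = 0.153), and passed only without knockout 1 (-0.32). Dusp11, an RNA phosphatase on the same side, was at -0.29 (adjusted p = 0.181), and Alms1, the gene of Alström syndrome on the other side, at -0.20 (SE 0.39, adjusted p = 0.793). Farther out Rab11fip5 fell by 0.50 (adjusted p = 0.00511), and Add2 (1.97, limma adjusted p = 0.0451) and Fam136a (0.43, adjusted p = 0.0282) rose. Add2 lost its call in 11 of 19 alternatives and Fam136a in 7 of 20. Add2 was near the floor, at 1.13 to 11.8 adjusted reads in wild type and 7.20 to 24.1 in knockout. Its groups overlapped, and it passed the filter mainly through the knockouts. Dusp11 and Alms1 were picked with their values in view. The difference between the family and its flanks was not tested.

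**Figure D3:**
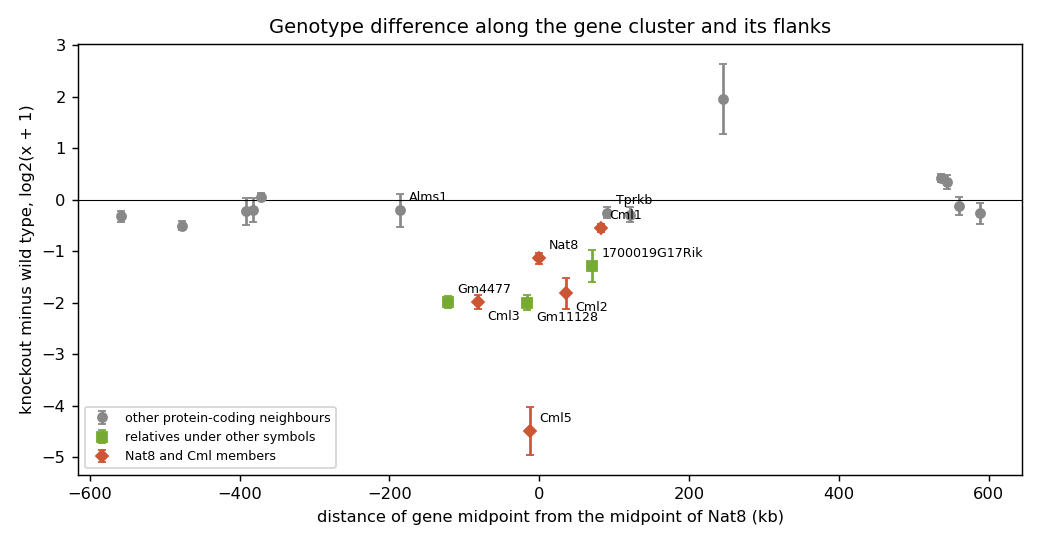
Knockout minus wild type difference, log2(x + 1), of each tested protein-coding gene against the distance of its midpoint from that of Nat8 in kb, with bars for the standard error from the SDs of the groups. The 5 members (orange) and 3 relatives (green) lie between -0.55 and -4.50. Among the flanking genes (grey), Rab11fip5 lies at -0.50, Fam136a at 0.43 and Add2, a gene near the floor, at 1.97.

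The promoters of the cluster were compared because its genes were lower together yet by very different amounts. RefSeq windows on GRCm38.p6, from 250 bases before to 50 after a start site, were found for the 8 cluster genes, 10 windows in all. A stretch with the letters GTTTATNAT stood shortly before the start site of Cml5, Cml2, Gm11128 and Gm4477. It was picked after these sequences were seen, and occurs on either strand in 0.633% of all 32851 promoter windows. It was not found in the windows of Cml1, Nat8, Cml3 or 1700019G17Rik. The windows do not lie at like places in these genes. That of Cml3 (85765695 to 85765994) is far upstream of its last exon, which ends at 85761853. That of Gm4477 (85708512 to 85708811) is close to its last exon, which ends at 85707931. Sequence outside the windows was not searched. The 30 bases from 1 base before GTTTATNAT are printed here to show how alike they are. Capitals mark GTTTATNAT and the CCAAT-type letters AGCCAAT (in 7.86% of all windows).
Cml5, chr6:85821019-85821048, minus strand: gGTTTATGATtacccaggagccAGCCAATg
Cml2, chr6:85869142-85869171, minus strand: gGTTTATGATtgtccaggagtcAGCCAATa
Gm11128, chr6:85809938-85809967, minus strand: gGTTTATAATtatcaaacatccagctttca
Gm4477, chr6:85708630-85708659, minus strand: gGTTTATAATtatcaaacatccagctttca
In Gm11128 and Gm4477 the stretch is the same, and AGCCAAT begins at its last base. In both it also lies inside an exon of a GENCODE transcript of the same gene, and that of Cml2 overlaps the first exon of its GENCODE transcript.

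The canonical E-box CACGTG, the site of Bmal1 with Clock, was in none of the 10 windows and in 7.15% of all. Its variant CACGTT was in that of Cml5 only, 148 bases before the start site, and in 4.68% of all. Neither of the D-box letters TTATGTAA and TTACGTAA was found (0.938% and 0.119% of all). All motifs were searched on both strands, and a match or its lack is a description of these letters alone. The stretch upstream of Cml5, the gene with the widest difference, is printed with CACGTT, GTTTATNAT and AGCCAAT in capitals.
Cml5, chr6:85820983-85821152, minus strand: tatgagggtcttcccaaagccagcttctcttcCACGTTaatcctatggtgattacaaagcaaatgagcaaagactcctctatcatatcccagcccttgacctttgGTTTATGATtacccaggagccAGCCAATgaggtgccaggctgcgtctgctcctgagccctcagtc
The windows of the cluster held 1 to 23 CpG, against a median of 7.0 over all windows: 23 in Cml1, 12 and 2 in 1700019G17Rik, 11 in Cml3, 8 and 1 in Nat8, 4 in Cml5 and in Cml2, 3 in Gm11128 and 1 in Gm4477. A window of Nat8 and that of Cml3 shared an exact run of 100 bases.

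A list of glutathione and mercapturate turnover held enzymes of glutathione synthesis, conjugate trimming and deacylation, and transporters. Of its 21 tested genes 11 fell and 2 rose (limma, adjusted p under 0.05), with a median log2 difference of -0.45, where 8.20% of all tested genes fell and 6.16% rose. Acy3, aminoacylase 3, which removes the acetyl group that NAT8 adds, was highly abundant. Its values were 15.70, 15.60, 15.41 and 15.27 in wild type against 14.13, 13.83, 13.99, 13.89 and 13.79 in knockout, a fall of 1.57 (SE 0.13, adjusted p = 9.73e-08) with no overlap. Ggt1, the γ-glutamyltransferase that opens the route, had 13.30, 13.21, 13.23 and 12.99 against 12.44, 12.24, 12.40, 12.15 and 12.25 (-0.89, SE 0.10, adjusted p = 1.08e-05). Cndp2, a cytosolic dipeptidase, changed most (-1.95, SE 0.12, adjusted p = 3.71e-09). Ccbl1, a β-lyase that cleaves cysteine conjugates in place of acetylation, fell by 1.32 (SE 0.12, adjusted p = 3.13e-07).

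Not every gene of the list was called. Dpep1, the main renal dipeptidase, was at 0.10 (SE 0.10, limma adjusted p = 0.580). Gclm, the modifier subunit of the first enzyme of glutathione synthesis, fell by 0.62 (SE 0.10, adjusted p = 0.000222). The catalytic subunit of that enzyme, Gclc, was at -0.01 (SE 0.15, adjusted p = 0.963). Acy1, another aminoacylase, fell by 0.47 (adjusted p = 0.0200), but lost its call in 7 of 20 alternatives. These were leaving out wild type 1 (0.0619), wild type 2 (0.0547), knockout 4 (0.0588) or wild type 2 with knockout 4 (0.122), Rn45s, the ribosomal RNA precursor, as a covariate (0.0541), quantile normalization (0.0643) and upper-quartile scaling (0.0515). The 2 that rose were Ggt5 and Abcc1, and 11 of 20 alternatives called only 1 of them. Dpep1, Gclm, Gclc, Acy1, Ggt5 and Abcc1 were picked with their values in view.

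**Figure D4:**
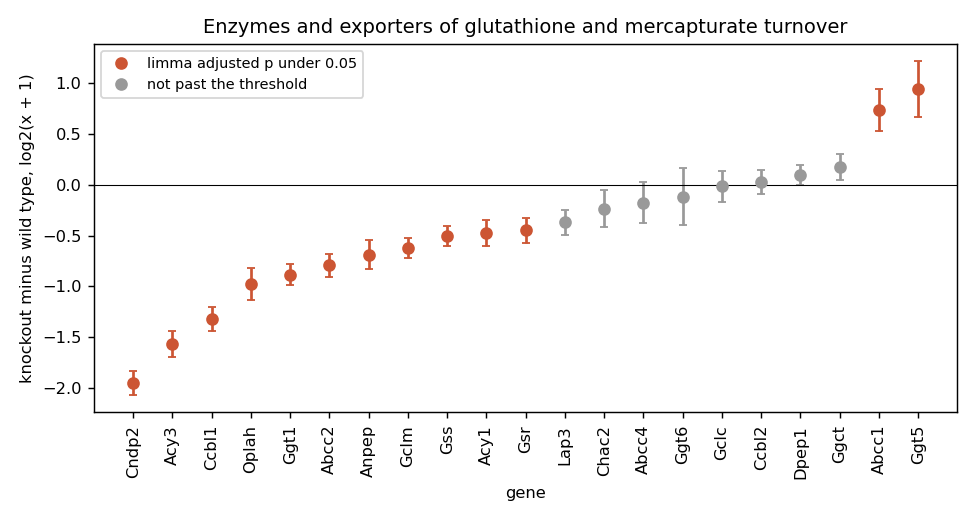
Knockout minus wild type difference, log2(x + 1), with limma's SE as bars, for the 21 tested genes of glutathione and mercapturate turnover in order of their difference. Genes past the threshold are orange; 11 lie below 0, from Cndp2 at -1.95, and 2 above.

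Of 21 tested glutathione S-transferases, which make the conjugates, 6 rose, 1 fell and 14 were not called, with a median of 0.44, against 6.16% of all tested genes that rose. Gsta1 (1.94, SE 0.17, limma adjusted p = 3.04e-07), Gsta2 (1.74, SE 0.10, adjusted p = 2.07e-09) and Gstm7 (1.38, SE 0.19) rose, and Gsta3 fell by 1.18 (SE 0.13). With quantile normalization or upper-quartile scaling 10 rose.

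A list of other acetyltransferases, outside the family, also held related acyltransferases and subunits of acetyltransferase complexes. Of its 26 tested genes 3 fell and 1 rose, with a median of -0.06. These shares are near those of all tested genes, 8.20% lower and 6.16% higher. Those that fell included Keg1 (-0.85, SE 0.14, limma adjusted p = 0.000455) and Glyat (-0.59, SE 0.10, adjusted p = 0.000630), both of the glycine N-acyltransferase group. Another, Naa50, a subunit of the NatE complex, was at -0.36 (adjusted p = 0.0266), and Nat14 rose by 0.79 (adjusted p = 0.0468). Nat14 lost its call in 15 of 20 alternatives and Naa50 in 10. For lysine acetylation in the endoplasmic reticulum, Slc33a1, the acetyl-CoA carrier of its membrane, fell by 0.75 (SE 0.14, adjusted p = 0.00106), and Atg9a, an acetylated autophagy protein, fell by 0.68 (SE 0.18, adjusted p = 0.0138; 0.0768 with Rn45s as a covariate). The protease Bace1 was at 0.10 (adjusted p = 0.776).

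Markers of the proximal tubule, the segment in which NAT8 is known to act, differed by segment. Beside the counts below, 8.20% of all tested genes were called lower and 6.16% higher. In lists this short a count of 1 is a single gene, and nothing is read from it. Of 17 general proximal tubule markers 6 fell and none rose, median -0.34, and Slc34a1, a phosphate carrier, was at -0.28 (limma adjusted p = 0.173). Without wild type 2, 11 fell. The summed level of this list was 249285 to 302400 adjusted reads in wild type and 206146 to 285166 in knockout, and no marker was at 0. For the early S1 segment 1 of 8 rose and none fell, median 0.05, with Slc4a4 at -0.16 and Slc5a12 at 0.04. In the late S3 segment 5 of 7 fell, median -1.18, including Slc7a13 (-1.22, SE 0.17, limma adjusted p = 0.000101), while Napsa was at -0.27. In bulk RNA, fewer cells of a type and less RNA per cell cannot be told apart. Measured against the mean of the general markers in the same library, the log2 differences were -4.10 for Cml5, -1.60 for Cml3, -1.42 for Cml2, -0.75 for Nat8 and -0.16 for Cml1, and only Cml1 among these 5 then overlapped between genotypes. The part of cell makeup in the family's difference was not tested. Of 6 hepatocyte markers, added because liver also uses this pathway, Tat was at 0 in all libraries and 3 were tested, of which 1 rose and 1 fell. Among markers of other kidney cells, 4 of 4 tested urothelium markers rose (summed level 30.8 to 79.4 adjusted reads in wild type against 144 to 363), as did 3 of 4 of the distal convoluted tubule. Of the urothelium genes, Krt15 passed the filter only through the knockouts (36.6 to 48.6 adjusted reads, against 0.103 to 8.50 in wild type). Upk1b passed it mainly through them (16.9 to 93.4 against 3.86 to 21.1), and Krt5 was not tested. The urothelium count is thus partly set by the filter, and nothing is read from it. In the thick ascending limb, collecting duct principal cells, intercalated cells and endothelium 2 of 5 rose in each, in fibroblasts and smooth muscle 2 of 6 and in podocytes 1 of 5, with none lower. Of 5 macrophage markers 1 fell, and none of the 5 red blood cell markers was called.

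Lists of genes with higher expression in male or female kidney were chosen with earlier results of these data known, so their counts are descriptions. For comparison, 8.20% of all tested genes were called lower and 6.16% higher. Most genes of the male-biased list were lower in knockout, as were the cluster members. Of 10 tested 9 fell and none rose, median -2.15, among them the transporter Slco1a1 (-3.04, SE 0.16), Odc1 of polyamine synthesis (-2.18, SE 0.12), Acsm3 (-2.78, SE 0.18) and Cyp4b1 (-2.20, SE 0.15; limma adjusted p of 1.02e-08 or less for each). Slc7a13 and Slc22a30 are on both this list and the S3 list. The mean of the male-biased list was 13.43 to 13.66 in wild type and 11.76, 11.33, 11.13, 11.42 and 11.09 in knockouts 1 to 5. This list holds Cyp4a12a, the closest profile to Cml5 among the genes compared below. Of 6 genes with higher expression in female kidney 5 rose and 1 fell, median 2.65. Reads of the Y chromosome genes Kdm5d, Eif2s3y, Ddx3y and Uty were present in each of the 9 libraries, at 6.32 or more. Rn45s took 5.07% to 11.3% of adjusted reads in wild type and 6.83% to 14.4% in knockout. The part of these measures in the family's difference was not tested.

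Profiles of tested genes over the 9 libraries were compared by the root mean square difference of mean-centred log2 values. Family members and predicted genes (Gm followed by a number, or Rik) were left out of this ranking. Closest to Nat8 among the rest were Hsd3b3, a kidney 3β-hydroxysteroid dehydrogenase (0.0779), the carboxylesterase Ces1f (0.0895), the sulfotransferase Chst7 (0.147), C1qtnf3 (0.149) and Vps8 (0.153). Hsd3b3 had 11.54, 11.51, 11.44 and 11.40 in wild type against 10.51, 10.36, 10.40, 10.05 and 9.96 in knockout, so that knockouts 4 and 5 were lowest, as for Nat8. Closest to Cml5 were Cyp4a12a (0.457), Cyp2a4 (0.687), Cyp4a12b, Ces1g (0.802) and Cyp2a5 (0.844). Cyp4a12a had 12.51, 12.61, 12.64 and 12.87 against 9.38, 7.20, 7.04, 8.05 and 6.73, with knockouts 1 and 4 above the others, as for Cml5. Such likeness rests mostly on the genotype difference, since these libraries share it. Within the cluster the distance between Nat8 and Cml1 was 0.320 and that between Nat8 and Cml5 1.80.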

How the data were processed

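Each of 9 deposited tables held the values of 1 kidney library for 23282 symbols. The deposited values are log2(x + 1) with x a read count that the authors adjusted between libraries, as judged from the values. Per the labels' protocols, 500 ng of RNA entered a Lexogen QuantSeq library. Bowtie2, bedtools and build mm10 are named, without versions, per the submitters' processing notes; the sources used here do not give the normalization or the counting settings. Genes with x of at least 10 in at least 4 libraries (13481) were tested by limma (version 3.58.1, run under R 4.3.3; moderated test with a variance trend, genotype as the only term, two-sided, Benjamini-Hochberg over all tested genes, threshold 0.05). The fit was tested on simulated data. Fold changes are differences of log2(x + 1), with a pseudocount of 1, which understate changes near the floor.

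Groups came from the sample titles. The members, gene lists and alternatives were chosen with earlier results of these data known. The genes named were all members and relatives in the cluster, up to 4 genes with the smallest adjusted p of each pathway list, the 2 most abundant of each proximal tubule list, called neighbours, and the 5 closest profiles to Nat8 and to Cml5; others are marked, and 1 gene that this rule names is not reported here. Positions and transcripts came from GENCODE M21, promoters from RefSeq (GRCm38.p6), and coding sequences were aligned with Biopython 1.88. Alternatives were other filters, pseudocounts and scalings, a ribosomal RNA covariate, a replicate block, robust variance and leaving out libraries.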

Additional observations from a re-analysis of the deposited data

Results flagged for a closer look

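In 114 groups checked, each named gene in each genotype, 5 had a library standing apart from the rest of its genotype; chance alone flags about 1 in 20 such groups. Gm4477 was at 8.015 in wild type 2, against 8.272 to 8.293 in the other wild types, and at 5.864 in knockout 4, against 6.221 to 6.365 in the other knockouts. Slc33a1 was at 9.552 in wild type 2, where the others were at 10.106 to 10.181. Odc1 was at 13.663 in wild type 4 (others 13.369 to 13.379), and Alms1 at 3.344 in knockout 4 (others 4.421 to 4.831). None of the 6 family members was flagged in either genotype.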

How the results depend on the processing

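All 5 cluster members stayed lower in knockout under each of 21 alternatives. Leaving out 1 library at a time gave log2 differences of -1.18 to -1.06 for Nat8, -0.59 to -0.50 for Cml1, -1.98 to -1.58 for Cml2, -2.09 to -1.93 for Cml3 and -4.78 to -4.26 for Cml5. Without wild type 2 and knockout 4 together, an alternative chosen after seeing the data, Cml5 was at -4.87. Quantile normalization put Cml1 at -0.41. Centring on general proximal tubule markers, also added afterwards, put Nat8 at -0.75, Cml1 at -0.16 and Cml3 at -1.60. In neither case was the cause tested. The 3 relatives fell in all 20 alternatives fitted. Nat8l, below the filter, was fitted only where no filter was set (2.61) and stood at 3.00 after the centring.

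Over all genes 1426 to 2277 were called when 1 library was left out, against 1937 (831 higher, 1106 lower). The split was 992 higher and 756 lower with scaling to the library total, 1123 and 811 with upper-quartile scaling, and 896 and 870 with quantile normalization. Of the lists, glutathione turnover had 1 gene higher instead of 2, and other acetyltransferases 0 instead of 1, with the ribosomal RNA covariate, no filter, quantile normalization, the block, both libraries left out or a minimum x of 50, the latter also with robust variance. Glutathione S-transferases had 10 higher with quantile normalization or upper-quartile scaling. Chromosome 6 neighbours had 0 higher with the covariate or the block and 1 with the minimum of 50. The covariate gave 1 gene of lysine acetylation lower and 1 general proximal tubule marker higher, and leaving out both libraries 1 S1 marker lower. Leaving out single libraries gave glutathione turnover 1 to 2 higher (1 without any of knockouts 1 to 4 or wild type 4), glutathione S-transferases 6 to 10 higher (10 without wild type 1) and 1 to 2 lower (2 without knockout 1), and other acetyltransferases 0 to 1 higher (1 only without wild type 3). It gave neighbours 0 to 2 higher (2 only without knockout 1 or wild type 2) and 1 to 2 lower (2 without knockout 1), general proximal tubule markers 5 to 11 lower (11 without wild type 2) and S1 markers 0 to 1 lower (1 without knockout 1 or wild type 2).

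Wild types and knockouts share replicate numbers. Deviations of same-numbered libraries correlated at 0.151, 0.000909, -0.00701 and 0.0407, and numbers 1 and 4 alone matched best with themselves. The numbers were not used as pairs in the main fit, and so few correlations cannot exclude a pairing. With a replicate block 1738 genes were called, and Nat8 was at -1.06 and Cml5 at -4.26. Knockout 5 has no wild type of its number, so under the block it added nothing to these differences. The raw depth is unknown, which limits what can be said of Nat8l and of Cml5 in knockout.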
